A study of Mus musculus with 27 samples.

Results

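F4/80hi brain macrophages, sorted 12 weeks after microglia had been depleted, were compared with naive microglia on whole-transcript expression arrays. The comparison took the 3 arrays that the sample titles name as F4/80hi cells at 12 weeks and the 5 that they name as naive microglia, which is 8 of the 27 arrays of the series. F4/80hi cells came from Cx3cr1CreER/+R26DTA/+ mice on a C57BL/6 background that had received tamoxifen (TAM) on 3 consecutive days, and were sorted as CD11b+CX3CR1hiF4/80hi. In these mice Cre made from the Cx3cr1 locus switches on diphtheria toxin A in CX3CR1-expressing cells, and some microglia survive and divide. Naive microglia were sorted as CD11b+CX3CR1hi, from TAM-treated Cx3cr1CreER/+ mice or from mice without any treatment, and the labels do not say which array came from which. Each sample was a pool of 2 to 5 mice. The 5 naive arrays stand for 3 biological samples and 2 technical repeats that the labels do not tell apart, and since all 5 entered the fit the p-values can be too low. F4/80low cells at 12 weeks, the repopulated microglia of the same depleted brains (3 arrays), and Ly6Chi monocytes from bone marrow (5 arrays) are given beside them where they help to place a value.

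Microglia are the resident macrophages of the brain parenchyma, and derive from yolk sac progenitors that settle before birth and renew themselves locally. When the microglial niche is emptied, monocytes from the bone marrow can enter the brain and become long-lived macrophages there. TGF-β and CSF1 receptor ligands from the brain maintain the microglial state, and the transcription factor SALL1 is a marker and a regulator of microglia in the mouse. Other macrophages live at the borders of the brain, in the meninges, perivascular spaces and choroid plexus, and share many genes with macrophages of other organs.

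Every value is a log2 signal as deposited, so 1 unit is a 2-fold change, and a gene near 5 is close to the median of an array and may be near background. A fitted fold that starts or ends there may be a lower limit, and the order of such folds is uncertain. Array medians were 5.12 to 5.23 in F4/80hi cells and 5.10 to 5.17 in naive microglia. Pearson correlations over transcripts were 0.975 to 0.977 among F4/80hi arrays, 0.968 to 0.987 among naive arrays and 0.938 to 0.958 between the groups, as a description over arrays that share 1 normalization. Naive array 3 stood apart, at 0.968 to 0.977 with the other naive arrays, which correlated at 0.981 to 0.987 among themselves. F4/80hi array 2 was the highest of its group in 49.4% of all genes. The F4/80hi arrays, the F4/80low arrays of that age and naive arrays 1 and 2 belong to batch 1, and naive arrays 3 to 5 to batch 2. The fitted difference between F4/80hi cells and naive microglia equals that between the F4/80hi arrays and naive arrays 1 and 2 (largest gap 4e-05), that is, a difference within batch 1, while all 27 arrays set the error. It can therefore depart from the difference between the means of all printed values. In the predicted gene Gm5797, for example, the means were 7.68 in F4/80hi and 11.47 in naive arrays. Naive arrays 1 and 2 averaged 11.12 there, and the fitted difference was -3.45.

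The pools also differed in sex-linked transcripts. Xist, the RNA of the inactive X chromosome, read 5.61, 5.14 and 5.66 in the F4/80hi arrays and 12.25, 10.98, 11.44, 11.32 and 12.18 in the naive arrays. It was 4.91, 4.48 and 5.60 in F4/80low cells, which places the depleted mice of both sorts apart from the naive mice. The Y-linked gene Eif2s3y read 9.44, 9.41 and 9.22 in F4/80hi cells and 5.54, 8.29, 7.35, 8.23 and 4.93 in naive microglia, where naive arrays 2 and 4 are the highest. Its difference of 2.44 did not pass the test (limma, adjusted p = 0.113), but did in a fit without the batch term (2.49, adjusted p = 0.0341). Of 4 sex-linked transcripts measured none was called higher, against 3 without the batch term and 2 with quantile normalization, with the arrays of batch 1 only, without naive array 2 or without naive array 4. A fit with a term for the Xist signal of each array was chosen after the data were seen. It is given beside the groups of genes described whose counts of calls it lowers. Because Xist itself separates F4/80hi from naive arrays, the term overlaps with the comparison and can widen the error of the difference. Some calls were lost with the difference almost unchanged, as in Ccl8 (1.04 without the term, 1.02 with it). Others were lost with a smaller difference, as in Irf7 (1.10 and 0.49). The part of sex in all these differences was not tested.

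The genes that define the sort were checked first. Cx3cr1, the fractalkine receptor through which both populations were gated, read 12.33, 12.45 and 12.45 in F4/80hi cells and 12.77, 12.73, 12.72, 12.71 and 12.60 in naive microglia. The difference of -0.34 ± 0.15 (SE) did not pass the test (adjusted p = 0.265). Itgam, which encodes CD11b, was 11.55 to 11.89 in F4/80hi cells and 12.58 to 12.98 in naive microglia, a difference of -0.88 (adjusted p = 8.05e-05) that stayed under 2-fold. Adgre1, the gene of the antigen by which F4/80hi cells were chosen, was 11.59 to 11.93 against 10.82 to 11.04, a difference of 0.81 against naive microglia and of 1.24 against F4/80low cells. That rise repeats the sort and is no finding.

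Of 32245 transcripts tested, 433 (1.34%) were higher in F4/80hi cells at an adjusted p under 0.05 and more than 2-fold, and 531 (1.65%) were lower. Counted once per gene, 347 of 21666 genes (1.60%) rose and 402 (1.86%) fell, around a median difference of -0.01 over all genes. The rises were the steeper side, with 122 genes above 4-fold and 45 above 8-fold, against 70 and 25 among the falls. In 337 of the 347 genes that rose and 399 of the 402 that fell, the F4/80hi and naive arrays did not overlap. Over all genes every F4/80hi array lay above every naive array in 1358 (6.27%), and below in 2631 (12.1%), and most of these genes were not called. Against F4/80low cells, a comparison that shares the F4/80hi arrays, 397 transcripts (1.23%) were higher and 413 (1.28%) lower, or 324 genes (1.50%) and 316 (1.46%).

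**Figure D1:**
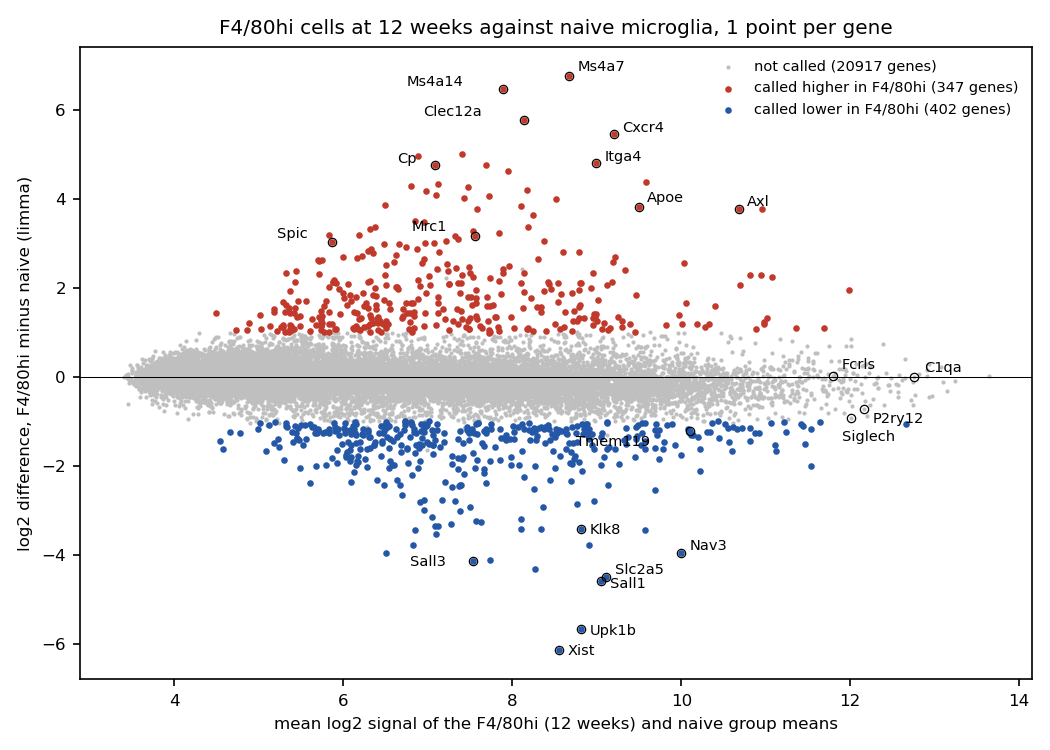
Log2 difference between F4/80hi cells and naive microglia (y axis) against the mean log2 signal of both groups (x axis), 1 point per gene. Coloured points are the 347 genes called higher and the 402 called lower, and the largest fitted rises reach 6.78 (Ms4a7) while the largest fall outside Xist reaches -5.66 (Upk1b).

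The largest fitted rise was in Ms4a7, a membrane-spanning protein of macrophages. Its signals were 12.17, 12.20 and 12.06 in F4/80hi cells and 5.04, 5.68, 4.63, 5.67 and 5.0 in naive microglia. The F4/80hi arrays thus lay close together and far above every naive array, a 110-fold difference (log2 6.78 ± 0.47, adjusted p = 5.0e-10). Ms4a7 was 5.87 in Ly6Chi monocytes and 6.40 in F4/80low cells. Ms4a14, its neighbour in the same gene cluster, read 11.21, 11.54 and 10.73 against 4.48, 4.85, 4.45, 4.83 and 4.56 and rose by 6.49 (adjusted p = 7.98e-09), with monocytes at 4.61. Both genes were therefore near the array median in monocytes and naive microglia alike, so both rises may be lower limits.

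Other genes among the 25 largest rises were as high, or nearly so, in monocytes. Cxcr4, the receptor for the chemokine CXCL12, read 12.16, 11.87 and 11.95 in F4/80hi cells, 6.40, 6.65, 5.15, 6.90 and 7.02 in naive microglia and 12.41 ± 0.11 (SD, n = 5) in monocytes. Clec12a, an inhibitory C-type lectin receptor, read 10.57, 11.46 and 11.01 against 4.84, 5.63, 4.11, 5.96 and 5.76, and 10.66 in monocytes. In both genes naive array 3 was the lowest naive array and no F4/80hi array came near the naive range. Itga4, the integrin α4 chain that leukocytes use to bind VCAM1, was 11.53, 11.57 and 11.16 in F4/80hi cells and 6.51, 6.71, 6.24, 7.05 and 6.30 in naive microglia (difference 4.81, adjusted p = 1.54e-08), and 11.88 in monocytes. Msr1, Tlr8, Cyp4f18, B3gnt8, Mndal and Pf4 followed this pattern too, with differences from naive microglia of 4.19, 5.01, 4.28, 4.03, 4.31 and 4.34.

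A further set rose in F4/80hi cells while monocytes, like naive microglia, stayed low. Cp, the copper-carrying ferroxidase ceruloplasmin, read 9.36, 9.75 and 9.33 in F4/80hi cells, 4.47, 4.96, 4.77, 4.85 and 4.39 in naive microglia and 4.31 in monocytes. Vcam1, the ligand of the α4 integrins, was 9.63, 10.01 and 9.60 against 5.48, 5.86, 5.23, 6.08 and 5.78, with 5.52 in monocytes and 6.82 in F4/80low cells. These are 27.2-fold and 16.9-fold rises over naive microglia as fitted, with no overlap of arrays, and may be lower limits since the naive signals were near the array median. Adgb, which encodes the globin-like protein androglobin, and Sorbs3, an adaptor of the actin cytoskeleton, rose by 4.64 and 4.10 with monocytes at 5.19 and 4.54. Axl, a receptor tyrosine kinase that recognises dying cells through GAS6, reached 12.68, 12.39 and 12.49 in F4/80hi cells against 8.41, 9.04, 9.24, 8.94 and 8.55 in naive microglia. Axl stood at 10.74, 10.18 and 10.05 in F4/80low cells, so its difference from them was 2.19 where that from naive microglia was 3.79.

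**Figure D2:**
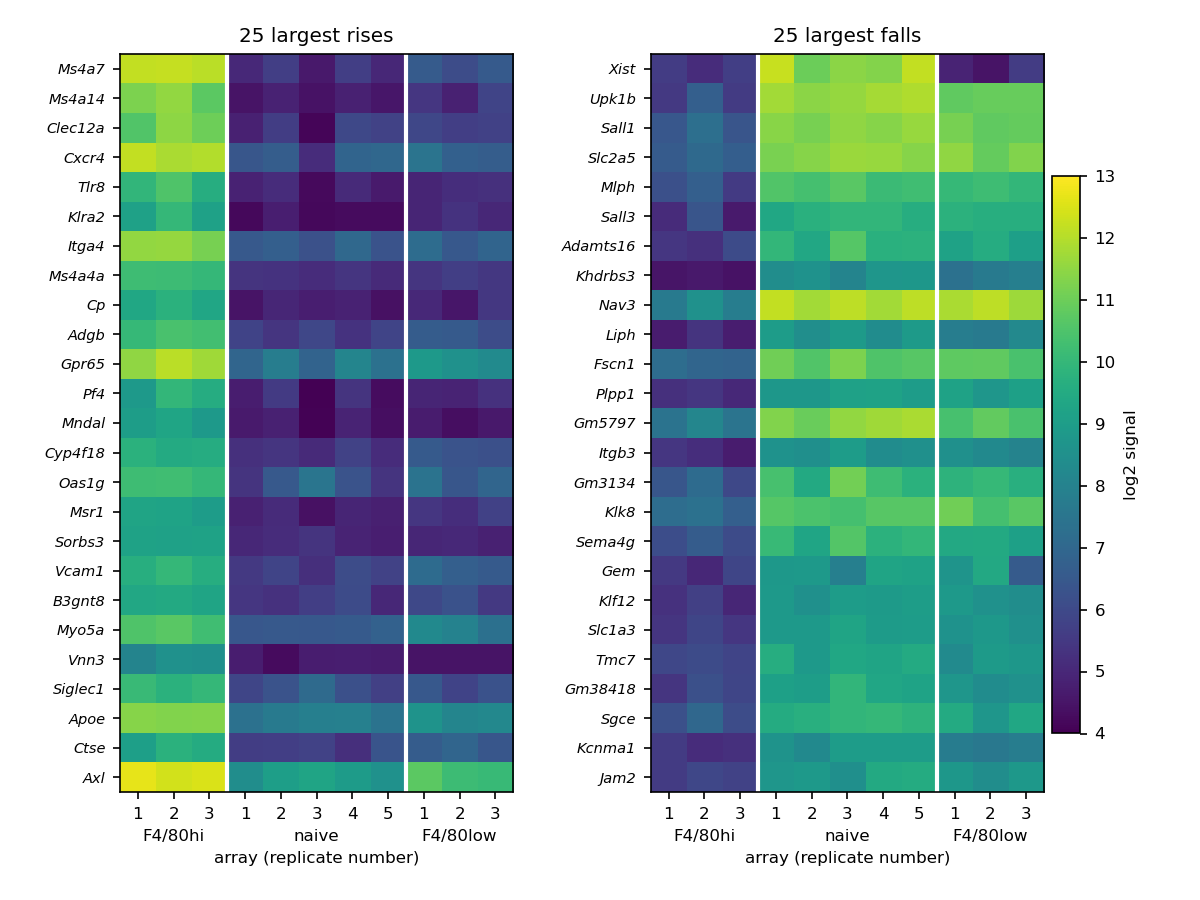
Log2 signal (colour, 4 to 13) of the 25 genes with the largest rise (left) and the 25 with the largest fall (right) in the arrays of F4/80hi cells, naive microglia and F4/80low cells. The F4/80low arrays resemble those of naive microglia in most of these genes, with Xist, at 5.0 in F4/80low cells and 11.63 in naive microglia, as the clear exception.

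Apart from Xist, the deepest falls were in genes known as microglial. Upk1b, a tetraspanin first described in urinary epithelium, read 5.51, 6.72 and 5.58 in F4/80hi cells and 11.76, 11.44, 11.56, 11.78 and 11.93 in naive microglia, a 50.6-fold fall (adjusted p = 8.84e-11). F4/80low cells were close to naive microglia in Upk1b, at 10.79, 10.92 and 10.92. Sall1, the zinc finger transcription factor named above, read 6.45, 7.29 and 6.36 in F4/80hi cells, 11.41, 11.17, 11.50, 11.36 and 11.60 in naive microglia and 5.08 in monocytes. It was lower in F4/80hi cells by -4.59 ± 0.27 (adjusted p = 8.84e-11), yet every F4/80hi array was above the monocyte arrays. Sall3, another member of the family, was 5.09, 6.38 and 4.65 against 9.35, 9.70, 9.94, 9.91 and 9.59 (difference -4.15, adjusted p = 1.62e-09), and its F4/80hi arrays overlapped the monocyte arrays. F4/80hi array 2 was the highest of its group in Upk1b, Sall1 and Sall3. Slc2a5, the fructose transporter GLUT5, was 6.60, 7.06 and 6.69 in F4/80hi cells and 11.19, 11.36, 11.65, 11.62 and 11.38 in naive microglia, a 22.5-fold fall with no overlap. Gm3134, which RefSeq lists under the synonym Sall1os, is a non-coding gene in the opposite orientation to Sall1, and was -3.43 lower (adjusted p = 1.09e-07); whether probes of either gene respond to RNA of the other was not tested.

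The remaining large falls spanned cell shape, adhesion, secreted enzymes and transport. Fscn1, which bundles actin filaments, read 7.22, 6.94 and 6.88 against 11.05, 10.56, 11.24, 10.51 and 10.67, and Nav3, a cytoskeletal protein of the neuron navigator family, read 7.69, 8.57 and 7.80 against 12.19, 11.75, 12.11, 11.74 and 12.10. Both were still above the monocyte arrays, whose means were 5.21 and 4.87. Among adhesion genes Itgb3, the integrin β3 chain, fell by 3.44, and Jam2, a junctional adhesion molecule, fell by 3.02. Among secreted or surface enzymes Klk8, a serine protease, fell by 3.43, the metalloprotease gene Adamts16 by 4.11 and the lipase gene Liph by 3.79. Slc1a3, a glutamate transporter best known from astrocytes, was 5.40, 5.88 and 5.42 in F4/80hi cells and 8.88, 8.87, 9.25, 8.93 and 8.98 in naive microglia; the other 5 astrocyte markers measured did not pass the test.

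Homeostatic microglia genes differed widely among themselves. Of 26 measured genes of this list (30 listed) 15 fell (14 with the Xist term), 11 did not pass the test, none rose, and the median difference was -1.11, against -0.01 over all genes and with 1.86% of genes called lower. In 23 of the 26 every F4/80hi array lay below every naive array, where 12.1% of all genes did so. The spread among members ran from 0.03 for Fcrls, a microglial Fc receptor-like gene, to -5.66 for Upk1b. Tmem119, a membrane protein widely used to label microglia, read 9.71, 9.28 and 9.65 in F4/80hi cells and 10.86, 10.66, 10.80, 10.42 and 10.53 in naive microglia, and monocytes were at 5.73. The arrays did not overlap and the fall of 1.21 passed the test (adjusted p = 0.00119), but not with the Xist term (adjusted p = 0.186).

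P2ry12, the ADP receptor by which microglial processes sense injury, showed the other kind of member. It read 11.58, 11.96 and 11.60 in F4/80hi cells and 12.43, 12.47, 12.68, 12.67 and 12.75 in naive microglia, so that no arrays overlapped, yet its difference of -0.73 (adjusted p = 0.00251) was under 2-fold and monocytes were at 6.60. Siglech, a sialic acid-binding receptor, and Olfml3, a secreted glycoprotein, were in the same position at -0.93 and -0.81, while Csf1r, the receptor on which microglia depend for survival, was at -0.32 (adjusted p = 0.0789). Siglech passed both thresholds without F4/80hi array 2 (-1.03) and with the Xist term. Further members that fell were St3gal5, a ganglioside-forming sialyltransferase, at -2.43, Lag3 at -2.44, Sparc, a matricellular protein, at -2.78, and Crybb1, a crystallin expressed early in microglia, at -2.85. Against F4/80low cells, which share the F4/80hi arrays with the comparison above, these members stood at -2.29, -2.30, -2.53 and -2.01. Because the samples are sorted pools, fewer cells that carry a transcript and less of it per cell cannot be told apart.

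**Figure D3:**
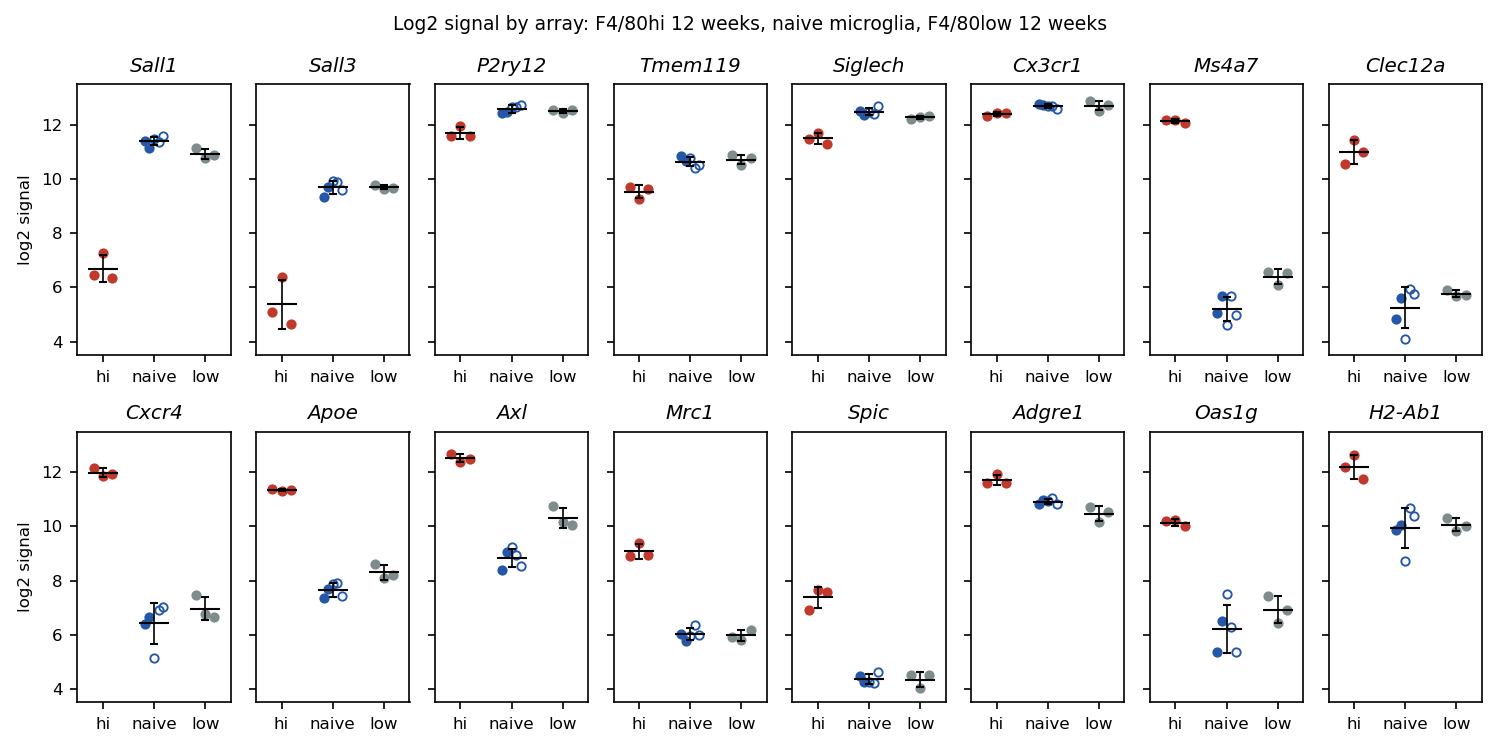
Log2 signal per array of selected genes in F4/80hi cells, naive microglia and F4/80low cells; filled naive points are batch 1 and open ones batch 2, and bars are mean ± SD. Sall1 lies at 6.36 to 7.29 in F4/80hi cells and at 11.17 to 11.60 in naive microglia, and Ms4a7 at 12.06 to 12.20 and 4.63 to 5.68.

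In 10 of 19 microglial transcription factors every F4/80hi array lay below every naive array, where 12.1% of all genes did so. Fewer passed the test, next to 1.86% of all genes called lower. Of 19 measured, 3 fell and none rose (median -0.37): Sall1, Sall3 and Smad3, a TGF-β effector whose fall of 1.16 did not pass without F4/80hi array 2 (-0.88) or with the Xist term. Spi1, which encodes the myeloid factor PU.1, was at -0.20 (adjusted p = 0.626), Irf8 at -0.37, Mef2c at -0.22 and Maf at -0.12, none past the thresholds. Among 20 factors of monocytes and peripheral macrophages 5 rose and none fell, next to 1.60% of all genes called higher. Spic, which in the spleen controls iron-recycling macrophages, read 6.93, 7.65 and 7.57 in F4/80hi cells and 4.47, 4.24, 4.26, 4.20 and 4.63 in naive microglia (difference 3.03, adjusted p = 1.21e-07). Monocytes had Spic at 4.21, so it was higher in F4/80hi cells than in either. Tfec, a relative of MITF, read 7.56, 7.80 and 7.75 against 4.92, 4.94, 5.28, 4.80 and 5.07, and was higher still in monocytes at 10.54. Trps1, Ahr, the aryl hydrocarbon receptor, and Runx3 rose by 2.07, 1.91 and 1.71, and the other 15, among them Cebpb at 0.05 and Id3 at 0.01, did not pass.

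Surface receptors changed selectively within each family, where 1.60% of all genes were called higher and 1.86% lower. In the Ms4a family, a cluster on chromosome 19, 5 of 17 members rose and none fell. These were Ms4a7, Ms4a14, Ms4a4a (4.78), Ms4a4c (3.0) and Ms4a6c (2.1), whereas the neighbouring Ms4a6b and Ms4a6d stood at 0.84 and 0.34. Of 20 C-type lectin receptors 8 rose (7 with the Xist term) and 1 fell. After Clec12a the largest rise was that of Klra2, a lectin-like receptor of the Ly49 family (4.98), then Mrc1, the mannose receptor CD206, which read 8.91, 9.40 and 8.95 against 6.03, 5.78, 5.96, 6.36 and 5.99. Clec7a, the β-glucan receptor dectin-1, was 11.10, 11.45 and 11.31 in F4/80hi cells, 8.87, 8.57, 8.19, 9.25 and 9.05 in naive microglia and 10.43, 9.68 and 9.57 in F4/80low cells, so that the F4/80low level fell between the others. The member that fell was Mrc2, a collagen-binding relative of Mrc1, at -2.99.

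Among 17 scavenger receptors 3 rose and 1 fell, next to 1.60% of all genes called higher and 1.86% lower. Msr1, the scavenger receptor A, was 9.25, 9.22 and 8.99 in F4/80hi cells and 4.82, 5.12, 4.42, 4.93 and 4.78 in naive microglia. Cd36, which takes up lipoproteins and fatty acids, was 7.41, 7.85 and 7.42 against 4.57, 5.19, 4.59, 5.03 and 4.47, with monocytes at 4.81. Both rises, 4.19 and 2.68, were free of overlap, and Cxcl16, a chemokine that also binds oxidised lipoprotein, rose by 2.30. Scarb1, a receptor for high-density lipoprotein, fell by 1.49, and Cd68, a lysosomal member, was at 0.24. Of 23 paired activating and inhibitory receptors 5 rose and 1 fell, led by Siglec1, the sialoadhesin of tissue macrophages (3.85), and Lilrb4a, an inhibitory immunoglobulin-like receptor that read 12.90, 12.87 and 12.63 against 8.84, 9.19, 8.90, 9.77 and 8.82. Trem2 and its adaptor Tyrobp were at -0.16 and 0.01. With the Xist term 3 of the 5 were called higher and none lower. Among 20 Toll-like receptors and partners the only rise called was that of Tlr8, a receptor of endosomes. Tlr8 read 9.92, 10.52 and 9.60 against 4.87, 5.14, 4.24, 5.08 and 4.65 (limma, adjusted p = 2.99e-08). The only fall called was that of Cd180 (-1.45). The count of rises was not stable, at 3 with quantile normalization. It was 2 with the Xist term, without naive array 2, or when F4/80hi array 1, 2 or 3 was left out.

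Many markers of border macrophages were called higher in F4/80hi cells, next to 1.60% of all genes. This list, like the others, was chosen with earlier results of these data known, so its share is no independent result. Of 19 measured (21 listed) 14 rose and none fell, with a median of 1.42, and the linear signal summed over the list was 17700 to 18900 in F4/80hi arrays against 4690 to 6400 in naive, 4370 to 5020 in F4/80low and 8880 to 9970 in monocyte arrays. Pf4, a chemokine also found in platelets, read 8.88, 9.96 and 9.58 in F4/80hi cells and 4.72, 5.54, 3.93, 5.34 and 4.29 in naive microglia, and Siglec1 read 10.11, 9.76 and 9.98 against 5.88, 6.31, 7.12, 6.21 and 5.72. Dab2, an endocytic adaptor, and Folr2, a folate receptor, rose by 1.99 and 1.31, and the call of Folr2 was lost with the Xist term, under which 11 members were called. Members that did not pass included Cd163, a haemoglobin scavenger receptor (0.64), Lyve1, a hyaluronan receptor (0.60; F4/80hi arrays 5.36, 6.17 and 5.07), and Stab1 (0.70). Ms4a7, Clec12a, Apoe and Mrc1 belong to this list and to others above, and whether border macrophages within the gate contributed to any of these rises was not tested.

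Genes of monocytes themselves were mostly low. Of 15 measured, 3 rose and none fell, and the summed signal was 2690 to 2950 in F4/80hi arrays, 1240 to 1560 in naive arrays and 49700 to 54300 in monocyte arrays. Ly6c2, which encodes the Ly6C antigen, read 6.13, 5.51 and 5.66 in F4/80hi cells, 5.57, 5.82, 5.73, 5.51 and 5.94 in naive microglia and 12.76 in monocytes. Ccr2, the receptor by which monocytes leave the marrow, was at -0.03 (adjusted p = 0.982). Neither of these defining genes passed the test, and the members that rose were F13a1 (1.85), Mgst1 (1.47) and Lyz2, lysozyme (1.12). The call of Mgst1 was lost with naive and monocyte arrays averaged within batch. None of 13 neutrophil, 10 T and NK cell, 7 neuron and 7 oligodendrocyte lineage markers passed the test in either direction. Lists of these sizes would often hold no call at the all-gene shares of 1.60% higher and 1.86% lower. Of B cell, dendritic cell and vascular markers Cd79b (-1.25), Naaa (-1.69) and Cdh5 (-1.06) fell. With the Xist term Cd79b and Cdh5 did not pass, and Cdh5 did not pass without naive array 2 (-0.96) or F4/80hi array 1 (-0.85) either.

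Genes for movement and attachment changed in both directions, where 1.60% of all genes were called higher and 1.86% lower. Of 17 chemoattractant receptors Cxcr4 and Ccr1 rose. Ccr1, a receptor for inflammatory CC chemokines, read 8.46, 8.53 and 8.77 in F4/80hi cells, 5.24, 5.89, 5.37, 5.76 and 5.51 in naive microglia and 7.36, 6.29 and 6.27 in F4/80low cells, again with F4/80low cells between. Of 20 chemokines 6 rose and 2 fell; beyond Pf4 and Cxcl16, the rise of Cxcl14 was 1.53, and the fall of Ccl9 was -1.54. The other calls, Cxcl2 (1.75), Ccl8 (1.04), Ccl12 (1.36) and Ccl4 (-1.27), were not stable. Those of Ccl8, Ccl12 and Ccl4 were lost when only the 8 arrays were fitted, and all of them depended on which arrays were kept. Cxcl2 did not pass without F4/80hi array 3 (adjusted p = 0.0718), Ccl8 without F4/80hi array 2 (0.102), naive array 1 (0.083) or naive array 4 (log2 0.99), Ccl12 without any of naive arrays 1, 3 and 5 or F4/80hi arrays 2 and 3 (0.06 to 0.321), and Ccl4 without naive arrays 1 or 2 or F4/80hi arrays 1 or 2 (0.0726 to 0.136). With the Xist term 3 chemokines were called higher. Of 25 adhesion genes 4 rose and 5 fell. Itga4 and Itgal, the α chain of LFA-1 (2.54), rose together with Vcam1, while Selplg, the selectin ligand PSGL-1, was 10.54, 10.38 and 10.45 against 12.37, 12.56, 13.35, 12.47 and 12.28 and fell by 2.01. Itgb1 and Itgb2, the β partners of the integrin chains that rose, were at -0.39 and -0.91 and did not pass, although Itgb2 was called lower without the batch term (-1.19, adjusted p = 0.005). Under the Xist term 3 adhesion genes were called higher.

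Part of the interferon-stimulated genes rose, where 1.60% of all genes were called higher, and most of the list stayed under 2-fold. Of 35 measured genes (40 listed) 10 rose, none fell, the lowest difference was 0.06 and the median 0.58, against -0.01 over all genes. In 18 of the 35 every F4/80hi array was above every naive array, compared with 6.27% of all genes. The oligoadenylate synthetases, which sense double-stranded RNA, led the list. Oas1g read 10.21, 10.23 and 10.0 in F4/80hi cells and 5.37, 6.52, 7.50, 6.29 and 5.36 in naive microglia (difference 4.20, adjusted p = 1.79e-06), and Oas2 read 9.76, 9.67 and 9.42 against 6.78, 7.13, 7.60, 7.07 and 6.35 (2.66, adjusted p = 1.64e-05). Naive array 3 was the highest naive array in Oas1g, but the groups did not overlap. Bst2, the virus-tethering protein tetherin, was 12.60, 13.10 and 13.01 against 10.75, 11.15, 11.23, 11.26 and 10.98, while Isg15, a ubiquitin-like protein, and Ifit1 were at 0.53 and 0.53 and did not pass. Against F4/80low cells 7 of the 35 were called higher, with Oas1g at 3.21, Oas2 at 2.12 and Bst2 at 1.74.

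With the Xist term 4 of these 35 genes were called higher rather than 10. Irf7, the interferon regulatory factor that amplifies the response, was 8.58, 8.46 and 8.81 in F4/80hi cells and 7.34, 7.70, 8.59, 7.59 and 7.48 in naive microglia; its difference of 1.10 did not pass with that term (adjusted p = 0.542) or without naive array 1 (adjusted p = 0.0529). Naive array 3 lay above the other naive arrays in Irf7, and its call was also lost with naive and monocyte arrays averaged within batch. Among 16 interferon receptors and signalling genes Usp18, Ifnar1 and Irf7 rose, next to 1.60% of all genes called higher. With the Xist term 1 of the 16 was called. Ifnar1, a chain of the type I interferon receptor, read 10.91, 10.85 and 10.84 against 9.64, 9.71, 9.94, 9.82 and 9.83, a difference of 1.19 (adjusted p = 1.58e-05), and its partner Ifnar2 was at 0.48 (adjusted p = 0.0633).

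The PYHIN genes, a cluster of interferon-inducible nucleic acid-binding proteins on mouse chromosome 1, had 5 of 8 measured members higher. Over all genes 1.60% were called higher. Mndal read 9.0, 9.29 and 8.84 in F4/80hi cells, 4.64, 4.83, 4.04, 4.90 and 4.33 in naive microglia and 9.23 in monocytes. Ifi207 read 8.43, 8.05 and 7.47 against 4.20, 5.04, 5.07, 5.05 and 4.51, and Ifi204 and Ifi213 rose by 2.44 and 2.18. Members of this cluster resemble each other in sequence, so probes may be shared and single members are uncertain. Aim2, which senses DNA for the inflammasome, was at -0.09. The calls of Ifi209 and Ifi213 were lost with the Xist term, and also with naive and monocyte arrays averaged within batch.

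Part of the promoters of some genes that rose in these 2 groups is shown. They were chosen because they hold the interferon-stimulated response element. It was searched as GAAA, any 2 bases and GAAA again on either strand from 250 bases before to 50 after each start (RefSeq, GRCm38.p6). The interferon-stimulated gene Ifitm3 and the PYHIN gene Ifi213 also held a match and are not shown. A promoter sequence was at hand for 7 of the 10 interferon-stimulated genes and 4 of the 5 PYHIN genes that rose. Oas2 and Ifi204, which rose too, are not among the genes with a match. A gene without a sequence could not show one. Capitals mark the GAAA blocks of each match, and each line reads 5′ to 3′ on the gene's own strand, which is the minus strand in all of them.
Oas1g, chr5:120887591-120887656: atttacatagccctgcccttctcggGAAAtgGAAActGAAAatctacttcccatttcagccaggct
Bst2, chr8:71537562-71537627: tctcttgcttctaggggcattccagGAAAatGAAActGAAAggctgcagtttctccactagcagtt
Ifi207, chr1:173741816-173741875: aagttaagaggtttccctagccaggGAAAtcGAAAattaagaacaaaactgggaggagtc
Mndal, chr1:173880189-173880248: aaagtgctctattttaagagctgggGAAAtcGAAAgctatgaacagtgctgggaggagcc
Oas1g and Bst2 each hold a pair of matches that share their middle block, the first of them at position -18 from the start in Oas1g and -130 in Bst2. Ifi207 holds 1 match. Mndal has a pair of listed starts, and the window shown is that of the start with a match on the gene's own strand, while the other start has a match on the opposite strand, at position -54. The shown windows of Ifi207 and Mndal are alike in most bases after the match, and less so in those before it.

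At least 1 promoter held the motif in 3.99% of the 27025 genes of the table and in 3.88% of those tested here, a gene with several starts counting once. It was in 20 of the 259 called-higher genes with a promoter sequence (7.72%) and in 15 of 304 that fell (4.93%). Among interferon-stimulated genes it was in 3 of 7 that rose and in 13 of 20 that did not pass, so the letters did not set the genes that rose apart from the rest of the list. Among PYHIN genes the corresponding counts were 3 of 4 and 2 of 3. A match is a run of letters in a window and not a measured binding site.

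Some genes of MHC class II, which presents antigen to T cells, were higher. Of 9 measured genes 4 rose and 1 fell, next to 1.60% of all genes called higher and 1.86% lower. H2-Ab1, a chain of the I-A molecule, read 12.19, 12.64 and 11.77 in F4/80hi cells and 9.87, 10.04, 8.72, 10.68 and 10.38 in naive microglia (difference 2.24, adjusted p = 5.02e-05). H2-Eb1 and H2-Aa were 10.49, 10.90 and 10.33 and 9.87, 10.49 and 9.55 in F4/80hi cells against 8.10, 8.23, 6.16, 9.24 and 8.75 and 7.66, 8.07, 5.63, 8.71 and 8.08 in naive microglia. No F4/80hi array overlapped a naive array in these 3 genes, but the naive arrays ranged widely, with array 3 the lowest and array 4 the highest in each. H2-Aa did not pass with the Xist term (adjusted p = 0.0505), and neither H2-Aa nor H2-Eb1 passed when only these 8 arrays were fitted (adjusted p = 0.191 and 0.109). Ciita, the class II transactivator, was at 0.99 (adjusted p = 0.0238), just under 2-fold, and passed without F4/80hi array 3 (1.32), naive array 1 (1.14) or naive array 3 (1.0), and H2-Oa, part of the loading regulator H2-O, fell by 1.98. Of 11 class I genes only Nlrc5, their transactivator, rose (1.79), with H2-K1 at 0.78.

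Lipid carriers and growth factors were among the clearest rises. Of 18 genes of lipid transport and cholesterol 7 rose and none fell, next to 1.60% of all genes called higher and 1.86% lower. Apoe, the main apolipoprotein of the brain, read 11.37, 11.31 and 11.33 in F4/80hi cells and 7.34, 7.68, 7.89, 7.91 and 7.42 in naive microglia. This was a 14.2-fold rise over naive microglia (limma, adjusted p = 6.31e-10). Apoe was 8.62, 8.10 and 8.19 in F4/80low cells and 7.37 in monocytes. Its neighbours in the genome Apoc1 and Apoc2 rose by 1.39 and 2.06, and Ch25h, a cholesterol hydroxylase, by 3.02. Abca1 and Abcg1, which export cholesterol, were at 0.69 and 0.0 and stayed under 2-fold. Of 19 disease-associated microglia genes, known from mouse models of neurodegeneration, 5 rose and 2 fell. Apoe, Axl, Igf1, Clec7a and Fabp5 rose, Cd9 and Csf1 fell (with the Xist term the calls of Csf1 and Apoc1 were lost), and Lpl, Itgax, Cst7 and Trem2 stood at -0.39, -0.18, 0.68 and -0.16.

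Of 24 cytokines and growth factors 5 rose and 3 fell (2 with the Xist term). The all-gene shares were 1.60% higher and 1.86% lower. Igf1, insulin-like growth factor, was 7.23, 6.96 and 6.80 in F4/80hi cells, 4.28, 4.49, 4.42, 4.45 and 4.48 in naive microglia and 4.41 in monocytes, and Hgf, hepatocyte growth factor, was 8.26, 8.69 and 8.08 against 5.30, 5.60, 5.26, 5.39 and 5.52. Il1b, the inflammatory cytokine interleukin-1β, rose by 2.70 (adjusted p = 2.70e-05) and Il6 fell by 2.05 (adjusted p = 0.000961), from 6.31, 6.79, 5.39, 7.12 and 6.77 in naive microglia to 4.33, 4.58 and 4.58. Tnf was at 0.37 and Il10 at 0.33. Gdf3, a member of the TGF-β superfamily, rose by 3.20, and the rise of Bmp2 was lost when naive array 1 (adjusted p = 0.0954) or F4/80hi array 1 (0.0767) was left out. Ptger4, a prostaglandin E2 receptor, rose by 3.24, and Cybb, the catalytic chain of the phagocyte NADPH oxidase, by 3.28, while the oxidase subunits Cyba and Ncf4 stood at -0.03 and 0.11.

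Genes around TGF-β were divided. Of 29 measured, 3 rose and 3 fell, with a median of 0.03, next to 1.60% of all genes called higher and 1.86% lower. Tgfbi, an extracellular matrix protein induced by TGF-β, read 11.80, 11.56 and 11.65 in F4/80hi cells, 9.51, 9.70, 10.05, 9.89 and 9.53 in naive microglia and 12.29 in monocytes. Eng, the co-receptor endoglin, read 8.13, 8.48 and 7.61 against 10.41, 9.71, 9.98, 9.84 and 10.20, and Smad7, the inhibitory SMAD induced by the pathway, 9.30, 8.55 and 9.30 against 10.07, 10.63, 10.11, 10.59 and 10.49. These moved in opposite directions, by 2.07, -1.98 and -1.30. The receptors Tgfbr1 and Tgfbr2 were at -0.37 and 0.20 and did not pass. The Xist term left 2 genes called in each direction. In the Notch pathway Jag1, a ligand, read 8.44, 7.75 and 8.06 in F4/80hi cells and 4.77, 4.71, 4.38, 4.68 and 4.24 in naive microglia (10.2-fold, adjusted p = 5.26e-09), while the receptor gene Notch4 and the ligand gene Jag2 fell by 1.69 and 1.50, the latter not with the Xist term.

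Guidance genes also split. Of 26 semaphorins, plexins, neuropilins, ephrins and their receptors 5 rose and 7 fell, next to 1.60% of all genes called higher and 1.86% lower. Plxnd1 and Plxna1, semaphorin receptors, rose by 2.34 and 2.09, and Nrp1, their co-receptor, by 1.23. Sema4g, a ligand, fell by 3.41, and Efnb1, an ephrin, by 1.86. With the Xist term 4 members were called lower.

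**Figure D4:**
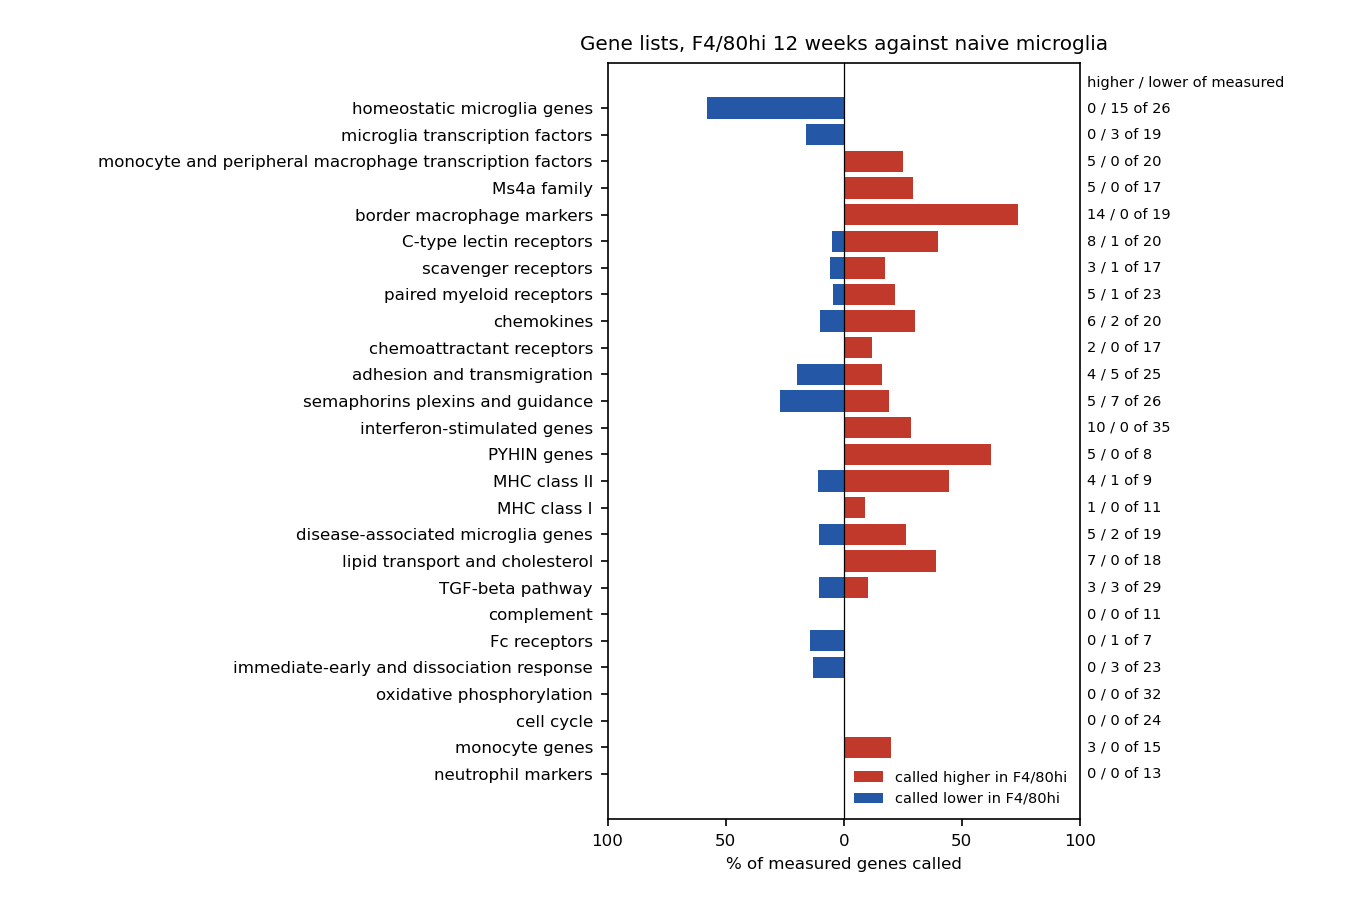
Percent of the measured genes of each list that were called higher (right) or lower (left) in F4/80hi cells relative to naive microglia, with the counts at the right edge. Among the lists plotted, border macrophage markers (14 of 19) and PYHIN genes (5 of 8) have the largest shares of higher genes and homeostatic microglia genes (15 of 26) the largest share of lower ones, next to 1.60% and 1.86% of all genes. The lists were chosen with earlier results of these data known.

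Several other programmes gave few calls or none. No gene of complement (11 measured), oxidative phosphorylation (32) or the cell cycle (24) passed the test in either direction. With 1.60% of all genes called higher and 1.86% lower, lists of these sizes would often hold few calls or none. The counts alone therefore do not show that these programmes were unchanged. C1qa, C1qb and C1qc, which microglia make in large amounts, were at 0.01, -0.08 and -0.07, and C1qa read 12.85, 12.79 and 12.64 against 12.82, 12.68, 12.76, 12.80 and 12.73. Mki67, a marker of dividing cells, was at -0.64 (adjusted p = 0.362). Among 7 Fc receptors 1 fell, Fcgrt, at -1.06, which did not pass without naive array 2 (-0.99) or F4/80hi array 1 (-0.98) or with the Xist term. Among 22 cathepsins and lysosomal genes Ctse, an aspartic protease, rose by 3.79, Ctsl and Ctsf fell by 1.46 and 1.62, and Ctsd and Ctsb were at -0.03 and 0.02. Of 23 immediate-early and dissociation response genes 3 fell and none rose, but 1 was called without naive array 1, F4/80hi array 1 or F4/80hi array 2, and none with the Xist term.

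Gene sets that earlier work defined in other cells, listed by the study, were also counted. Of 152 core genes of bone marrow-derived macrophages 73 rose and none fell (median 0.90), and of 153 core microglia genes 90 fell and none rose (median -1.19). Over all genes 1.60% were called higher and 1.86% lower. With the Xist term 71 of the macrophage genes were called higher and 73 of the microglia genes lower. Of 47 genes of brain-engrafting macrophages 24 rose, and of 50 genes higher in microglia than in engrafted cells 36 fell. Of 49 genes that rise in microglia without Sall1, 40 rose here (median 2.1), and of 45 that fall without it 26 fell (median -1.41). For the microglial neurodegenerative phenotype (MGnD) 10 of 25 up genes rose and 2 fell, and 18 of 59 down genes fell. In the fit with the Xist term 31 of the 50, 35 of the 49 and 20 of the 45 were called, as were 1 MGnD up gene as lower and 15 MGnD down genes. These sets share members with each other and with the lists above, and none of their counts was tested as a set.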

How the data were processed

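RNA was hybridized to whole-transcript mouse arrays (Affymetrix), and the deposited values are log2 signals that the authors had normalized in Partek; its version, its settings and a genome build are not given in the sources used here. The difference between batches is the same in naive microglia and monocytes in every transcript (largest gap 0.000133), which is what a batch adjustment before deposit leaves. Of 41345 transcripts, 2145 are blank and 6955 are 0 in every array, and the remaining 32245 were tested; 22761 pair with 1 gene symbol, giving 21666 genes, each by its transcript of highest mean signal.

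All 27 arrays were fitted jointly by limma 3.58.1 under R 4.3.3, each group having its own mean and each batch its own shift (17 residual and 6.23 prior degrees of freedom). The Benjamini-Hochberg method was applied to the p-values of these 32245 transcripts, and genes were called at an adjusted p below 0.05 with a change of more than 2-fold. The number of arrays limits the precision. The script was tested on simulated data.

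Samples were grouped by their titles. Replicate numbers were not used as pairs: after removal of group means, arrays of the same number in F4/80hi cells and naive microglia correlated at -0.0428, -0.0684 and 0.0854. The gene lists were chosen with earlier results of these data known. Named genes are the 25 largest rises and 25 largest falls without overlap of arrays, from each list up to 6 called members in each direction and up to 4 that were not called (by highest signal), and the genes the study names for these arrays. Abcg1, Ccr2, Cebpb, Cst7, Dab2, Folr2, Id3, Ifit1, Il10, Irf8, Isg15, Itgb1, Itgb2, Lpl, Maf, Mef2c, Spi1 and Tgfbr2 lie outside this rule and were chosen after their values were seen. Alternatives were other normalizations, filters, array subsets and variance models, each array left out in turn, a replicate block and, chosen after seeing the data, a term for Xist.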

Additional observations from a re-analysis of the deposited data

Results flagged for a closer look

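In 14 of the 166 genes named with values, 1 of the 5 naive arrays stood apart from the other 4 by Dixon's ratio at the 95% level, where chance gives about 1 in 20. In 11 of the 14 this was naive array 3, always above the others, the array that also had the lowest correlations with its group. Its signals were 8.59 in Irf7 (7.34 to 7.70 in the others), 10.69 in Irf8 (9.35 to 9.46), 12.98 in Itgam (12.58 to 12.63), 8.01 in Itgax (7.29 to 7.48) and 11.02 in Itgb2 (9.37 to 9.66). They were 6.48 in Lpl (5.20 to 5.44), 8.85 in Mef2c (8.25 to 8.39), 10.11 in Naaa (9.44 to 9.52), 10.08 in Scarb1 (9.31 to 9.41), 13.35 in Selplg (12.28 to 12.56) and 9.25 in Slc1a3 (8.87 to 8.98).

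Naive array 1 was below the others in Ctsd, at 12.59 against 12.69 to 12.71. Naive array 2 was above them in Klra2, at 4.74 against 4.18 to 4.28, and naive array 4 in Mgst1, at 5.89 against 5.27 to 5.43. In Klra2 and Mgst1 every F4/80hi array was above all naive arrays, these included.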

How the results depend on the processing

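The counts of transcripts called in F4/80hi cells stayed within 1.5 times of 433 higher and 531 lower (against naive microglia) and of 397 and 413 (against F4/80low cells) under every alternative but one. Without the fold threshold they were 865 and 1196 against naive microglia and 816 and 890 against F4/80low cells, since that setting also admits changes under 2-fold. With each array left out in turn they ranged from 412 to 478 and from 508 to 568 against naive microglia, and from 351 to 447 and from 395 to 449 against F4/80low cells. With naive and monocyte arrays averaged within batch, which removes the technical repeats from the count of arrays, 349 were higher and 445 lower, and of the 166 genes named with values 12 were no longer called. These 12 were Ccl4, Ccl8, Ccl12, Cdh5, Csf1, Cxcl2, Fcgrt, Ifi209, Ifi213, Irf7, Mgst1 and Xist. Fitted on the 8 arrays alone, 381 and 470 transcripts were called. Quantile normalization gave 525 and 515, and the arrays centred on their medians 401 and 585.

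The numbers of the samples were not used as pairs, also not between F4/80hi and F4/80low cells, which came from the same depleted brains. The labels do not say whether arrays of the same number share mice. Arrays of the same number in F4/80hi and F4/80low cells correlated at -0.0789, -0.103 and -0.0551 after removal of group means. These correlations cannot decide the question, because what is left over all transcripts may be mostly noise. With the replicate number as a block the counts were 465 and 548 against naive microglia and 399 and 414 against F4/80low cells, and of the 166 named genes 1 more was called (Ciita) and none fewer.

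The term for the Xist signal, chosen after seeing the data, gave 431 transcripts higher and 406 lower, of which 336 and 359 were among the 433 and 531. Of the 166 named genes 17 were no longer called with it. Every gene named kept the direction of its difference, or stayed uncalled, under every alternative run. Near background, around the array median of 5.06 to 5.23, the arrays can show a rise but hardly a fall, so a fall that ends there, or a rise that starts there, may be a lower limit.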

Other observations

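Some predicted genes of chromosome 14 fell in F4/80hi cells. Of 116 measured genes of this kind on that chromosome 14 were called lower and none higher, next to 1.86% and 1.60% of all genes. Gm5797 read 7.43, 8.12 and 7.47 in F4/80hi cells and 11.30, 10.95, 11.55, 11.70 and 11.85 in naive microglia (difference -3.45, adjusted p = 2.51e-06), and Gm38418 read 5.38, 6.20 and 5.88 against 9.10, 9.0, 9.92, 9.34 and 9.23 (-3.23). F4/80low cells were nearer to naive microglia, at 10.38, 10.85 and 10.41 and 8.74, 8.36 and 8.55. The group was singled out after its values were seen. Some of these genes may be near-identical copies, so probes may be shared and the 14 may not be separate transcripts.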
